A study of Homo sapiens with 12 samples.

Results

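Replication-dependent histone genes were examined across 12 RNA sequencing libraries of 3 human lines of non-small cell lung cancer. These are the protein-coding genes whose older symbols begin HIST1H, HIST2H, HIST3H or HIST4H, and they encode the linker histone H1 and the core histones H2A, H2B, H3 and H4. RefSeq lists 71 of them, and 37 were matched by Ensembl identifier to 1 of the 57815 gene rows. The matched genes were 6 of 6 H1, 9 of 17 H2A, 10 of 18 H2B, 7 of 15 H3 and 5 of 15 H4 genes, and the other 34 genes are not analysed here. Of the 37, 24 lie on chromosome 6, 12 on chromosome 1 and 1 on chromosome 12.

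The lines were A549 and H2023, labelled as lung adenocarcinoma, and H460, labelled as lung large cell carcinoma, and the labels mark all of them as positive for a KEAP1 mutation. KEAP1 keeps the transcription factor NRF2 low, so that NRF2 is active in such lines. Each line received control siRNA (2 libraries, numbered 0 and 1) or NRF2 siRNA (1 library with siRNA number 28 and 1 with number 30) and was harvested at 48 h, so the spread of a knockdown group includes the difference between siRNAs. The study treats these libraries as biological duplicates. Ribosomal RNA was removed from the A549 RNA without polyA selection, whereas polyA RNA was selected from H2023 and H460.

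Replication-dependent histone mRNAs are made mainly in S phase, when newly copied DNA is packed into nucleosomes. Their genes lack introns in the coding part and stand in clusters, often as divergent H2A and H2B pairs that share a promoter. Unlike other mRNAs they usually end at a short stem-loop in place of a polyA tail, and the stem-loop binding protein SLBP guides their cleavage, translation and decay. Some of these genes also give rise to longer, polyadenylated transcripts, which are known from differentiating and non-cycling cells.

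The 3' stem-loop is shown first because it is the feature that a polyA selection acts around. The search pattern was a 16-base hairpin, in which a stem arm GGNNCT, a loop TTTN and the complementary stem arm AGNNCC follow each other, on the sense strand within 150 bases after the coding end, in the GRCh37 genome with the GENCODE annotation lifted to it. It was found in 36 of the 37 matched genes (H2AC11 had no match) and in 64 of 20175 coding genes in all (0.317%). The 4 distinct sequences are printed 5′ to 3′ as DNA, with the 4 bases of the loop in capitals. The number of genes that carry each is given in the sentences after them.
H1-2, H2AC6, H2AC7, H2BC21 and others: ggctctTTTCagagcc
H2BC4, H2BC5, H2BC12 and others: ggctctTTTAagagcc
H4 genes: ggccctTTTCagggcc
H2AC20: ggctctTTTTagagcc
The first form was carried by 22 genes, the second by 8 genes, the third by all 5 matched H4 genes and the last by 1 gene. In H2BC5 the stem-loop lies at chromosome 6, 26158815 to 26158830, on the plus strand, 40 bases after the coding end. In H1-2 it lies at chromosome 6, 26055972 to 26055987, on the minus strand, 31 bases after the coding end. Of the 36 genes with a stem-loop, 14 have at least 1 annotated transcript that runs over 100 bases past it, and 22 do not. H2AC6, H2BC4, H2BC5, H2BC21, H2AC25 and H3-7 are among the 14, whereas H1-2, H2AC7 and H2BC12 are not. The FPKM values are per gene, so reads within and past the stem-loop cannot be told apart.

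Levels are given as FPKM, fragments scaled to transcript length and library size, which can be compared between genes. The libraries had 12732 to 13909 genes at 1 FPKM or above. Counts per library were not used here, so no counting interval is given, and low values rest on few fragments. In the H2023 libraries, for example, the linker histone H1-4 was listed at 0.0911, 0.183, 0.281 and 0.394 FPKM, the last 3 being 2.01, 3.08 and 4.33 times the smallest. The targeted gene NFE2L2, which encodes NRF2, was at 30.9 to 38.2 FPKM in A549 control libraries and at 5.31 and 7.84 FPKM with NRF2 siRNA. With NRF2 siRNA it fell from 118 and 120 FPKM to 6.80 and 7.74 FPKM in H2023, and from 99.5 and 144 FPKM to 6.54 and 12.2 FPKM in H460. Of the 5 epithelial markers, KRT8 and KRT18 were at 298 FPKM or more and KRT19 at 7.28 FPKM or more in every library, whereas EPCAM and CDH1 were at 6.23 FPKM or more in A549 and H2023 and at 1.19 FPKM or less in H460. Of the 5 lung adenocarcinoma markers, KRT7 was at 682 FPKM or more in A549 and H2023 and at 10.3 to 26.8 FPKM in H460, NAPSA was at 1.25 FPKM or less, and NKX2-1, SFTPB and SFTPC were at 0.353 FPKM or less in every library. The summed level of the 4 leukocyte markers was 14.3 to 60.3 FPKM, nearly all of it CD68, and the 4 fibroblast markers summed to at most 14.6 FPKM, with the endothelial VWF and CDH5 at 0.129 FPKM or less.

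The 37 genes took a much larger share of the A549 libraries than of the others, which is a comparison of protocols as much as of lines. Their summed level was 11276 and 10825 FPKM in the A549 control libraries. With control siRNA H2023 had 152.7 and 135.1 FPKM, and H460 171.3 and 144.5 FPKM. These sums were 1.15% ± 0.0290 of all FPKM in A549, 0.0219% ± 0.00215 in H2023 and 0.0217% ± 0.00184 in H460 (SD, n = 2 each). Of the 10 matched RNAs that carry no polyA tail, 9 were higher in every A549 library than in any other library, and RN7SL2 was listed at 0 in A549 and at 14.6 to 39.9 FPKM in H2023 and H460. The 7SK RNA RN7SK was at 75942 to 103694 FPKM in A549 and at 5.61 to 17.4 FPKM in the other lines, and the telomerase RNA TERC was at 336 to 429 FPKM in A549 and at 0.656 FPKM or less elsewhere. Removal of ribosomal RNA was used only for A549, so protocol and line cannot be told apart and no test was made.

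**Figure D1:**
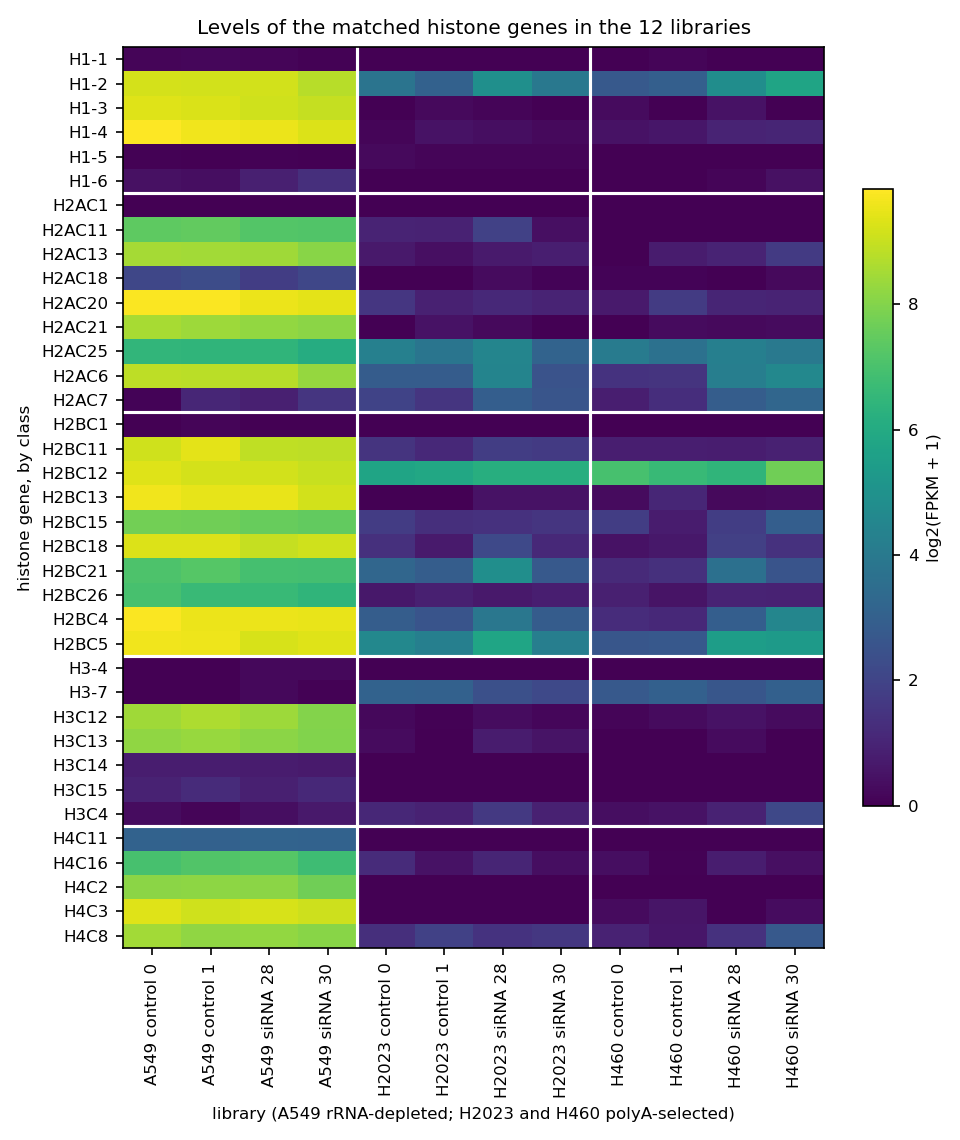
Level of each of the 37 matched genes, as log2(FPKM + 1) by colour, in rows ordered by class (H1, H2A, H2B, H3, H4, split by white lines) and in columns for the 12 libraries (3 lines, control libraries 0 and 1, NRF2 siRNA 28 and 30). Most rows are bright in the 4 A549 columns and dark in the 8 polyA-selected columns, with H2BC12 the brightest row there and H3-7 and H2AC7 dark in A549.

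In A549, 23 of the 37 genes had a control mean over 100 FPKM, against 13 genes at a mean of 1 FPKM or more and 3 over 10 FPKM in the control libraries of the polyA-selected lines. The ratio of the A549 control mean to the mean of the 4 polyA-selected control libraries was taken for 25 of the 28 genes at 1 FPKM or more in an A549 control library. Its median was 261, beside 0.942 over the 13491 of 14046 such genes of the whole table for which it could be formed. The remaining 3 genes, H3C15, H4C11 and H4C2, were listed at 0 in all 4 polyA-selected control libraries.

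The 4 highest ratios belonged to H1-3, a linker histone, H3C13 and H3C12, which encode core H3, and H4C3, which encodes core H4. Their A549 control means were 632, 302, 367 and 606 FPKM in that order, against 0.102, 0.0542, 0.125 and 0.180 FPKM in the polyA-selected control libraries. Of those 4 libraries, 2 were at 0 for H1-3, 3 for H3C13, 0 for H3C12 and 2 for H4C3. H4C2, at 282 FPKM in A549, was at 0 in all 4, so the size and the order of the highest ratios were not resolved. The lowest ratios belonged to H2AC7 (0.331), H2AC25 (5.89), H2BC12 (7.47) and H2BC21 (32.0). Of these, H2AC7 and H2AC25 encode H2A and the others H2B. H3-7, an H3 gene on chromosome 1, was outside this rule because it was listed at 5.2e-05 FPKM or less in both A549 control libraries, while H2023 and H460 control libraries had 5.64 to 7.62 FPKM.

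Genes with an annotated transcript past the stem-loop were seen more often in the polyA-selected libraries. Of the 14 such genes, 9 had a mean of 1 FPKM or more in the polyA-selected control libraries, against 4 of the 22 genes without one. The median over the genes of these means was 1.58 FPKM for the first kind and 0.114 FPKM for the second, and the medians of the A549 control means were 175 and 292 FPKM. The second kind also held the gene with the highest polyA-selected level, H2BC12, at a mean of 83.5 FPKM, and H1-2, at a mean of 8.18 FPKM. These are descriptions without a test, because the genes share libraries and sequence.

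**Figure D2:**
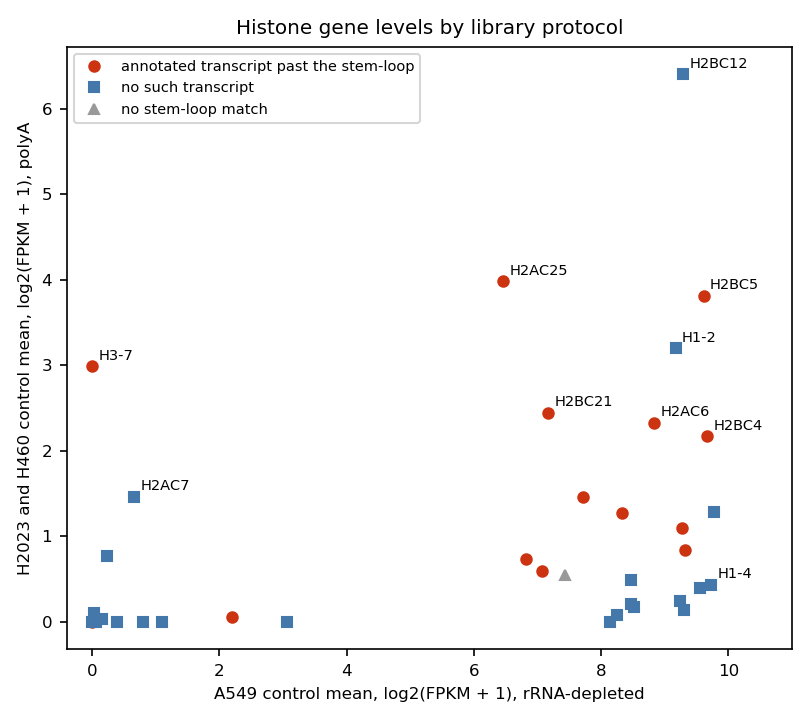
Mean of the control libraries of A549 (horizontal axis) against the mean of the control libraries of H2023 and H460 (vertical axis), both as log2(FPKM + 1), 1 point per gene. Red circles are the 14 genes with an annotated transcript past the stem-loop, blue squares the 22 without one, and the grey triangle is H2AC11. Blue squares lie mostly along the bottom, with H2BC12 and H1-2 as the exceptions that stand highest.

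Within A549, no histone gene passed the test of NRF2 siRNA against control siRNA, although most values were lower. Of the 37 genes, 28 had FPKM of at least 1 in 2 or more of the 4 libraries and were tested with limma on log2(FPKM + 1), with Benjamini-Hochberg adjustment over all 13898 genes tested. At an adjusted p under 0.05, 0 were lower and 0 higher (0 at an unadjusted p under 0.05 as well), beside 0.554% of all tested genes lower and 0.122% higher (1844 at an unadjusted p under 0.05). The fold change was below 0 for 26 of the 28, with a median of -0.23 on the log2 scale beside 0.02 over all tested genes. In 21 of the 28 both NRF2 siRNA libraries lay below both control libraries, which held for 20.5% of all tested genes, and in 1 (H4C11) both lay above, which held for 25.2%. Adjusted p-values of the 28 ran from 0.395 to 0.938. In the same libraries the summed level of the 10 matched RNAs without a polyA tail was 130699 and 136633 FPKM with control siRNA, 222804 FPKM with siRNA 28 and 144060 FPKM with siRNA 30, with 0 of the 9 tested past the threshold. Their part in the histone values was not tested.

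The summed H2B level was 4771 and 4585 FPKM in the A549 control libraries and 4032 and 3836 FPKM with siRNA 28 and siRNA 30. The summed H1 level was 2137 and 1974 FPKM against 1871 and 1575 FPKM, and the summed H2A level 2322 and 2268 FPKM against 2078 and 1756 FPKM. For H3 the sums were 637.7 and 705.4 FPKM against 619.8 and 506.2 FPKM, whereas for H4 they were 1408 and 1293 FPKM against 1337 and 1132 FPKM and overlapped. In every class siRNA 30 gave the lowest sum of the 4 libraries.

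The 5 A549 genes with the highest means were H2AC20, H1-4, H2BC4, H2BC5 and H2BC13. H2AC20 (H2A) was at 874 and 867 FPKM with control siRNA and at 756 and 686 FPKM with NRF2 siRNA, and its log2 fold change was -0.27 ± 0.15 (SE, limma adjusted p = 0.509). H1-4, a linker histone, was at 911 and 785 FPKM against 753 and 631 FPKM (-0.29 ± 0.17, adjusted p = 0.536 by limma). In both genes the knockdown libraries lay below the controls by less than the test resolves. H2BC4 was at 877 and 744 FPKM against 740 and 719 FPKM, and H2BC5 at 792 and 769 FPKM against 603 and 647 FPKM, with log2 fold changes of -0.15 ± 0.16 and -0.32 ± 0.15 (SE). H2BC13 was at 789 and 708 FPKM against 735 and 571 FPKM, so that its groups overlapped.

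The lowest fold change among the tested A549 genes was that of H2BC11 (H2B), at 555 and 680 FPKM with control siRNA and 476 and 461 FPKM with NRF2 siRNA (log2 fold change -0.39 ± 0.16, limma adjusted p = 0.395). The highest was that of H2AC7, at 0.0775 and 1.08 FPKM against 0.808 and 1.90 FPKM (0.61 ± 0.39, adjusted p = 0.565 by limma). H2AC7 was thus near the limit of detection in A549, where the other H2A genes on chromosome 6 that were tested stood at 143 FPKM or more. RefSeq gives the H3 gene H3C4, also near 0 in A549 at 0.101 to 0.587 FPKM, a second start in the same window as H2AC7, so reads of these genes may be shared between them.

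In H2023, none of the 16 tested histone genes passed the test of NRF2 siRNA against control siRNA. Of the 16, 13 had a higher level with siRNA 28 than with siRNA 30. In A549 the same order held for 23 of the 28 tested, and in H460 for 5 of the 13. The share of all tested genes with this order was not counted. Of the 37 genes, 16 were tested among 14059 genes, with 0 lower and 0 higher by limma (2 at an unadjusted p under 0.05), beside 0.583% and 0.327% of all tested genes (2378 at an unadjusted p under 0.05). The fold change was above 0 for 10 of the 16, and the median was 0.38 on the log2 scale beside 0.02 over all tested genes. Both NRF2 siRNA libraries lay above both controls for 4 genes (27.0% of all tested genes) and below for 1 (22.0% of all tested genes). Against the control mean, the median of the 16 genes was 0.52 with siRNA 28 and -0.08 with siRNA 30.

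H2BC12 had the highest level in H2023, at 52.2 and 57.9 FPKM with control siRNA and 69.9 and 70.4 FPKM with NRF2 siRNA (log2 fold change 0.35 ± 0.15, SE, limma adjusted p = 0.333). H2BC5 was at 23.3 and 18.2 FPKM with control siRNA, 54.6 FPKM with siRNA 28 and 17.4 FPKM with siRNA 30 (0.57 ± 0.52, limma adjusted p = 0.633). H2BC21 was at 8.44 and 6.49 FPKM, then 27.8 and 5.70 FPKM in the same order. Both genes thus stood well above control in the siRNA 28 library and just below it in the siRNA 30 library. H2AC25 was at 18.3 and 13.2 FPKM with control siRNA, 21.0 FPKM with siRNA 28 and 7.65 FPKM with siRNA 30, the same order of the siRNAs around its control level.

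H1-2, a linker histone that is also made outside S phase, was at 12.7 and 7.41 FPKM with control siRNA and at 29.2 and 14.3 FPKM with NRF2 siRNA (1.003 ± 0.40, limma adjusted p = 0.299). H2AC7 was at 2.94 and 1.87 FPKM against 6.71 and 4.98 FPKM, the largest rise of the tested genes (1.01 ± 0.27, limma adjusted p = 0.176). Both lay above control with either siRNA without passing the test. H3-7 was at 7.62 and 7.37 FPKM against 4.23 and 3.54 FPKM, the lowest fold change (-0.80 ± 0.21, limma adjusted p = 0.171). Without the siRNA 30 library, 5 genes passed as higher by limma, namely H2BC21 (1.77, adjusted p = 0.00977), H2AC6, H2BC5, H1-2 and H2BC4. Of all 14059 genes, 561 passed as higher in that fit, against 46 with all 4 libraries. Without the siRNA 28 library 0 of the 16 did, beside 488 of all genes, and the median of the 16 genes was -0.08.

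In H460, 6 histone genes of the H1, H2A and H2B classes rose with NRF2 siRNA, by 1.81 to 2.93 on the log2(FPKM + 1) scale, and none fell. The 6 genes were H2BC5, H2AC6, H1-2, H2AC7, H2BC4 and H2BC21. The RNA of H460, like that of H2023, was polyA-selected, so these values do not measure total histone mRNA. Of the 37 genes, 13 were tested among 13446, and 7 of these did not pass the limma test. Over all tested genes 7.12% were higher and 6.86% lower in H460, so calls were far more frequent there than in the other lines, and both directions were called about equally often. The median log2 fold change of the 13 was 1.32 beside -0.01 over all tested genes. Both NRF2 siRNA libraries lay above both controls for 9 of the 13 (31.1% of all tested genes) and below for 0 (31.6% of all tested genes). H2BC18 and H4C8 passed the filter only through their NRF2 siRNA libraries, so they had to lie above control. Both are among the 9 and neither among the 6, and the median was the value of H4C8. Over the other 11 genes the median was 1.81, and 7 lay above both controls with both siRNAs.

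Other RNAs moved in the same H460 libraries. Of the 3 tested RNAs without a polyA tail, RN7SK was at 6.38 and 5.92 FPKM with control siRNA and 10.97 and 12.2 FPKM with NRF2 siRNA (0.81 ± 0.25, limma adjusted p = 0.0759). SCARNA7, a small RNA of Cajal bodies, was at 0 and 0.327 FPKM against 1.29 and 1.51 FPKM (1.06 ± 0.27, limma adjusted p = 0.0495), having passed the filter only through its NRF2 siRNA libraries, and RN7SL2 had overlapping groups. The summed level of the 4 fibroblast markers was 5.37 and 5.61 FPKM in the control libraries and 11.5 to 14.6 FPKM with NRF2 siRNA. Of these, COL1A1 rose (1.23 ± 0.26, limma adjusted p = 0.0329), COL3A1 was the other gene tested, and COL1A2 and DCN were at 0.395 FPKM or less. The part of these in the histone values was not tested.

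H2BC5 (chromosome 6, 26158350 to 26171577, plus strand, GRCh37) was at 5.26 and 5.52 FPKM in the H460 control libraries, 43.3 FPKM with siRNA 28 and 39.6 FPKM with siRNA 30. Its log2 fold change was 2.73 ± 0.23 (SE, limma adjusted p = 0.00998). H2AC6 (chromosome 6, 26124373 to 26139344, plus strand) was at 1.74 and 1.81 FPKM against 17.7 and 23.0 FPKM (2.93 ± 0.27, limma adjusted p = 0.0111). In both genes the siRNAs gave like levels, and the gap to control was several times the spread within groups. H2BC4 (chromosome 6, 26086545 to 26124154, minus strand), which is transcribed away from H2AC6 across a shared promoter, was at 1.40 and 1.21 FPKM against 6.58 and 21.6 FPKM (2.504 ± 0.51, limma adjusted p = 0.0313). Here siRNA 30 gave the higher level. The bounds of H2BC4 include the genes H1-6, H4C3 and HFE and those of H2BC5 include the pseudogene LARP1P1, so that reads of these may be shared.

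H1-2 (chromosome 6, 26055968 to 26056698, minus strand) was at 5.69 and 6.90 FPKM with control siRNA and at 27.1 and 52.1 FPKM with NRF2 siRNA (2.41 ± 0.35, limma adjusted p = 0.0188). H2AC7 (chromosome 6, 26199012 to 26199521, minus strand) was at 0.751 and 1.46 FPKM against 6.41 and 8.50 FPKM (2.02 ± 0.31, limma adjusted p = 0.0195). H2BC21 (chromosome 1, 149856009 to 149858232, minus strand) was at 1.28 and 1.58 FPKM against 11.2 and 4.89 FPKM (1.81 ± 0.39, limma adjusted p = 0.0351). For none of these did the groups overlap. For H2BC21 siRNA 28 gave the higher level and for H1-2 siRNA 30 did. Reads of H2AC7 may be shared with H3C4, which was at 0.283 and 0.405 FPKM with control siRNA and 0.921 and 3.38 FPKM with NRF2 siRNA and was not tested.

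The most abundant histone gene of H460 did not pass the test. H2BC12 was at 126 and 98.2 FPKM with control siRNA, 85.9 FPKM with siRNA 28 and 205 FPKM with siRNA 30 (0.25 ± 0.41, limma adjusted p = 0.708), so the siRNAs lay on opposite sides of control. H2AC25 was at 16 and 11.7 FPKM against 18.1 and 14.7 FPKM (0.24 ± 0.27, limma adjusted p = 0.584), and H3-7 at 5.64 and 7.15 FPKM against 5.14 and 7.18 FPKM. H2AC20 had the lowest fold change, at 0.658 and 2.23 FPKM against 1.04 and 0.977 FPKM (-0.20 ± 0.37, limma adjusted p = 0.736). The groups of these 4 genes overlapped.

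H2BC18 was at 0.402 and 0.536 FPKM with control siRNA and 2.65 and 1.64 FPKM with NRF2 siRNA (1.08 ± 0.28, limma adjusted p = 0.0520). H4C8, the only H4 gene tested in H460, was at 0.901 and 0.512 FPKM against 1.67 and 5.75 FPKM (1.32 ± 0.46, limma adjusted p = 0.0998). H2BC15 was at 2.45 and 0.700 FPKM against 2.47 and 6.65 FPKM (1.09 ± 0.50, limma adjusted p = 0.181). None passed the threshold, and all were above control with both siRNAs. For H2BC18 and H4C8 this had to be so, because they passed the filter only through their NRF2 siRNA libraries. For H2BC15 the lower NRF2 siRNA value, 2.47 FPKM, was barely above the higher control value, 2.45 FPKM. Of the 9 tested genes with an annotated transcript past the stem-loop 4 rose, as did 2 of the 4 without one. By position, 5 of the 8 tested genes on chromosome 6 rose and 1 of the 5 on chromosome 1, beside 7.12% of all tested genes. Neither split was tested, and both include H2BC18 and H4C8 among the tested genes.

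**Figure D3:**
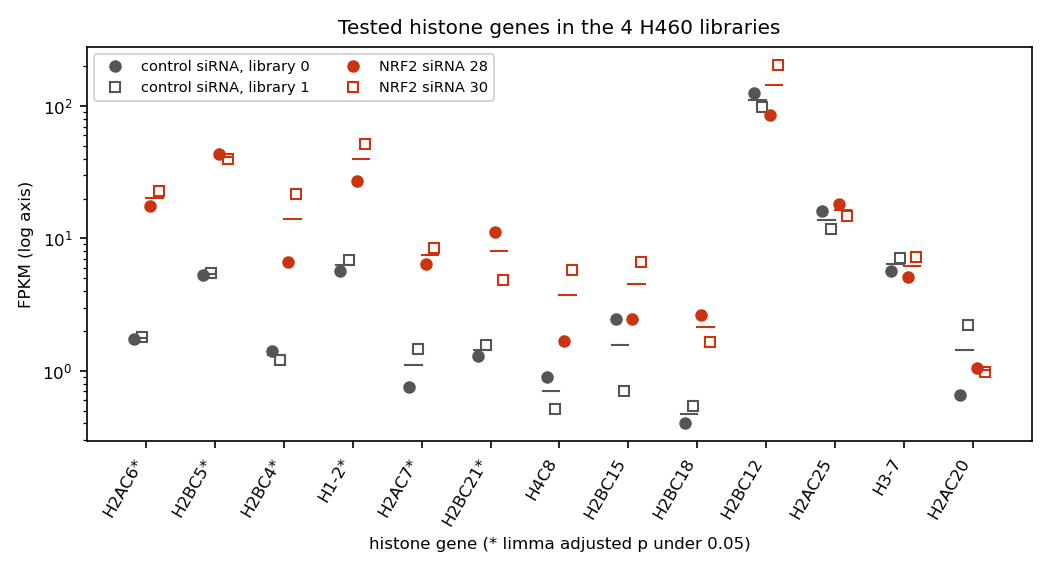
FPKM (log axis) of the 13 tested histone genes in H460, ordered by fold change. Grey symbols are the control libraries 0 and 1, red symbols NRF2 siRNA 28 (filled) and 30 (open), short lines the mean of each pair, and an asterisk marks a limma adjusted p under 0.05. The red symbols stand above the grey ones from H2AC6 to H2BC18, whereas for H2BC12, H2AC25, H3-7 and H2AC20 they overlap.

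The H460 calls depended on both control libraries. Leaving out control library 0 or control library 1 left 0 of the 13 genes past the threshold, and then only 1 of all 13446 genes passed. The log2 fold changes of the 6 genes stayed between 1.28 (H2BC21) and 3.29 (H2BC4) over the fits without 1 library. Leaving out mitochondrial transcripts moved the median of all tested genes from -0.01 to 0.19 and the calls from 922 lower and 957 higher to 580 lower and 1426 higher. The median of the histone genes under that scaling was 1.56. With no filter on low values, 0 histone genes and 0 of all 29735 genes passed.

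**Figure D4:**
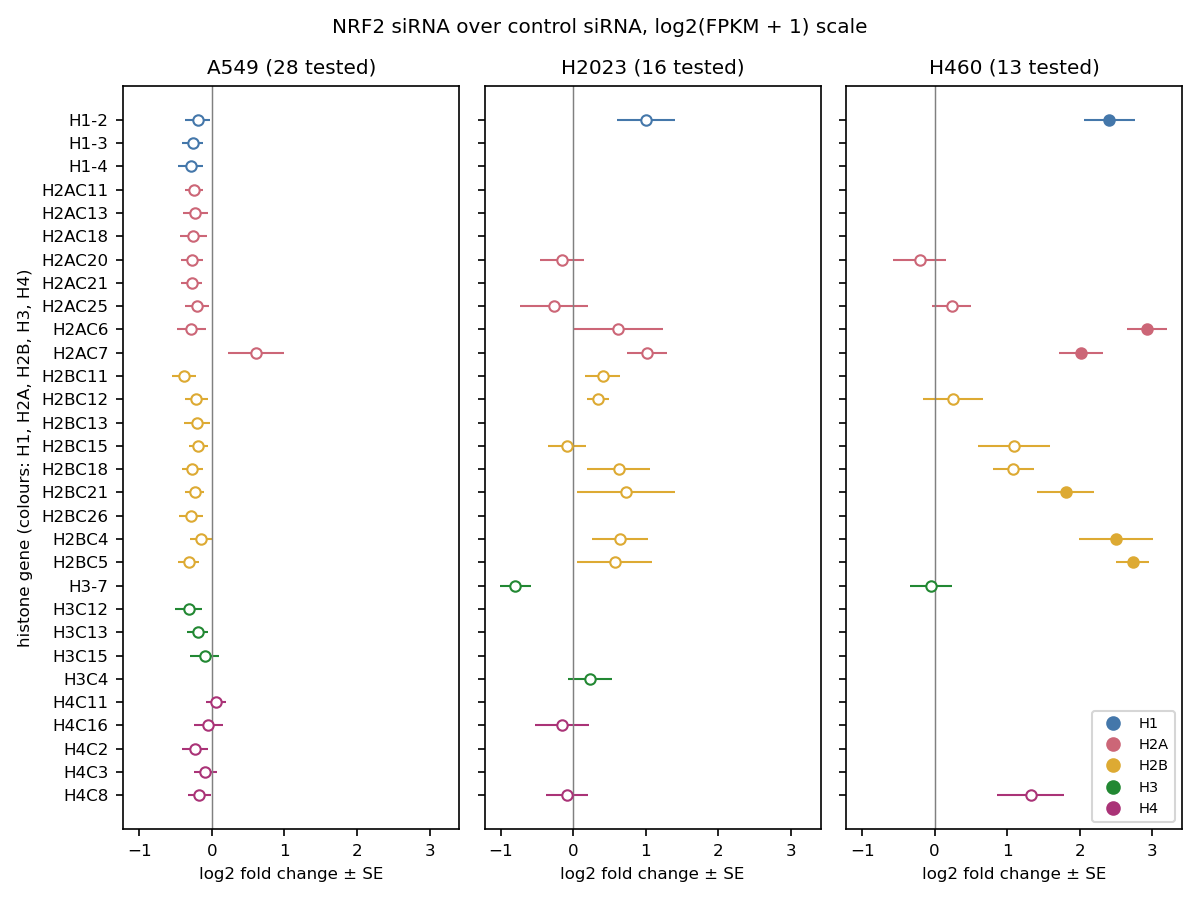
Log2 fold change of each tested histone gene (NRF2 siRNA over control siRNA, log2(FPKM + 1) scale) with its standard error, in A549, H2023 and H460, coloured by class, with filled points for a limma adjusted p under 0.05. Of the 28 A549 points 26 lie below 0, with H4C11 just above 0 and H2AC7 higher, the H2023 points spread around 0, and the H460 points reach 2.93.

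The promoters of the 6 genes that rose in H460 are shown because H2AC6 and H2BC4 rose together across a shared one. Each window holds 300 bases around the start in RefSeq (GRCh38.p14), most of them before it, 5′ to 3′ on the strand of the gene, and windows were given for 35 of the 37 genes. Capitals mark 3 motifs on either strand: the octamer ATTTGCAT, known as a binding site of OCT1 in H2B promoters, the CCAAT box and the TATA box TATAAA. The H2AC6 window overlaps that of H2BC4 and is not repeated. The H2BC21 window overlaps that of H2AC20 in the same way, and there H2BC21 rose whereas H2AC20 had the lowest fold change and did not pass the test.
H2BC4 (chr6:26123877-26124176, minus strand): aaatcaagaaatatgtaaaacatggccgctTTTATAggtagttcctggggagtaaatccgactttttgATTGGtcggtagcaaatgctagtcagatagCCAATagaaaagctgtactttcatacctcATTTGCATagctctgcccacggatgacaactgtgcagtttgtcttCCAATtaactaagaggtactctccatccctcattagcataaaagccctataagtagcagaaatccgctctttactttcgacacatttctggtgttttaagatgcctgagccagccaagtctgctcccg
H2BC5 (chr6:26157871-26158170, plus strand): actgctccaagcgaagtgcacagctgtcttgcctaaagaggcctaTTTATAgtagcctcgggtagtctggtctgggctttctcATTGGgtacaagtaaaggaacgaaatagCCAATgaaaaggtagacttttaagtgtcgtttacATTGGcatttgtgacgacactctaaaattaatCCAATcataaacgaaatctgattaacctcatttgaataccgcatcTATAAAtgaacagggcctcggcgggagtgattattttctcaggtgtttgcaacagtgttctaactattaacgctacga
H2BC21 (chr1:149886633-149886932, minus strand): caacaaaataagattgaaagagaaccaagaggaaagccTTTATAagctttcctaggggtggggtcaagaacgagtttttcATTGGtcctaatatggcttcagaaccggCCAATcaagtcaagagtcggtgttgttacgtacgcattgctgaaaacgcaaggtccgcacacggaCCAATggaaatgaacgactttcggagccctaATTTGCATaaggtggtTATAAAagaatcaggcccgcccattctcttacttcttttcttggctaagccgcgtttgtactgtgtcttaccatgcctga
H1-2 (chr6:26056421-26056720, minus strand): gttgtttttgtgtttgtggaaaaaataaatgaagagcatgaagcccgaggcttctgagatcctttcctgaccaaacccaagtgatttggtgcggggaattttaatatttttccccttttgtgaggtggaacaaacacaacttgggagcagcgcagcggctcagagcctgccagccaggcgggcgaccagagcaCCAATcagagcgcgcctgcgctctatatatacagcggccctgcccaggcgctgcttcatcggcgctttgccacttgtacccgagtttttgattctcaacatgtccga
H2AC7 (chr6:26199244-26199543, minus strand): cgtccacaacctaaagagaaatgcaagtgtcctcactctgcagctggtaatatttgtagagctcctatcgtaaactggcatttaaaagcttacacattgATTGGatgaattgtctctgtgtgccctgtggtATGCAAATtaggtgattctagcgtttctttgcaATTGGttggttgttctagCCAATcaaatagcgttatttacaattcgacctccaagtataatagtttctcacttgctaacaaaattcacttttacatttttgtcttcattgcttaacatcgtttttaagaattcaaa
The octamer was found for 13 of the 35 genes (37.1%), beside 2.19% of 27305 genes. It was found for 6 of 9 H2A, 6 of 10 H2B, 1 of 6 H3, 0 of 6 H1 and 0 of 4 H4 genes. Because windows overlap, these 13 genes hold 8 distinct octamers. The 1 H3 gene was H3C4, through its second start, whose window is that of H2AC7, while the other H3C4 window held none. Of the genes that rose in H460, H2AC6, H2AC7, H2BC4 and H2BC21 carried it and H2BC5 and H1-2 did not, whereas H2BC12, H2AC20 and H2BC18, 3 of the 7 that did not pass the test, carried it too. CCAAT was found for all of the H1, H2A, H2B and H3 genes and for 0 of 4 H4 genes (88.6% of the 35, 39.7% of all genes), and TATAAA in 74.3% of the 35 and 14.0% of all genes.

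Across the lines, H2AC7, H1-2, H2BC5, H2AC6 and H2BC4 were higher with NRF2 siRNA on average, and 1 gene differed in its response between lines. In a limma fit of all 12 libraries, 12 histone genes were at 1 FPKM or more in 2 libraries of every line, and 5 passed as higher on average and 0 as lower, beside 15.2% and 14.5% of all 11571 tested genes. The average log2 fold changes were 1.21 ± 0.21 for H2AC7 (SE, adjusted p = 0.00234 by limma), 1.07 ± 0.21 for H1-2, 0.99 ± 0.22 for H2BC5, 1.09 ± 0.27 for H2AC6 and 1.001 ± 0.26 for H2BC4. Within A549 the fold changes of H1-2, H2BC5, H2AC6 and H2BC4 were below 0 (-0.20, -0.32, -0.29 and -0.15), and all 5 were largest in H460. In H2023 H2BC5 and H2AC6 were below the control mean with siRNA 30 (-0.23 and -0.33). The average joins A549, read without polyA selection, with the polyA-selected H2023 and H460, so it does not rest on 1 kind of library. The F-test of the difference between the 3 lines passed for H2BC5 (adjusted p = 0.0387 by limma), which makes 1 of 12 beside 2.51% of all tested genes. H2AC6 (adjusted p = 0.0536 by limma) and H1-2 (0.0566) were next. Without 1 library the count was 0 for each of the 4 A549 libraries, both H2023 and both H460 control libraries and H460 siRNA 30, 5 without H2023 siRNA 28, 3 without H2023 siRNA 30 and 5 without H460 siRNA 28. Over all 11571 genes the last 3 fits called 625, 195 and 798, against 290 with all libraries. Between H460 and H2023, which share the polyA protocol, 0 of the 12 effects differed by limma (5 at an unadjusted p under 0.05) beside 3.32% of all 11571 tested genes (2607 at an unadjusted p under 0.05). The largest such difference was that of H2AC6, 2.31 ± 0.65 on the log2 scale (adjusted p = 0.0758 by limma), and the smallest p was that of H2BC5 (2.16 ± 0.54, limma adjusted p = 0.0574). The count was 3 without H2023 siRNA 28, 1 without H2023 siRNA 30 and 4 without H460 siRNA 28, in fits that called 715, 124 and 1103 of all genes against 384 with all libraries.

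siRNA 28 and siRNA 30 did not differ past the threshold in any histone gene. Of the 29 genes tested in the 6 NRF2 siRNA libraries with line as a covariate, 0 passed limma (3 at an unadjusted p under 0.05), beside 0.0% of 15716 genes (2853 at an unadjusted p under 0.05). In 1 fit of all 12 libraries, 0 of the 29 passed too, whereas 375 of the 15716 genes did (273 higher and 102 lower with siRNA 28). H4C16 had the smallest p, with a log2 difference of siRNA 28 over siRNA 30 of 0.50 ± 0.17 (limma adjusted p = 0.218). It was at 151 and 109 FPKM in A549, 1.03 and 0.281 FPKM in H2023, and 0.707 and 0.323 FPKM in H460 with siRNA 28 and siRNA 30 respectively. All lines thus had the higher value with siRNA 28.

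The genes that serve histone supply and the cell cycle were set beside the histone genes, with lists chosen as described for the processing. In A549 the one gene of these lists that passed the limma test was HJURP, the chaperone of the centromeric histone CENPA, which fell from 104 and 105 FPKM to 49.1 and 49.7 FPKM, and in H2023 none passed. Without passing, HJURP in H2023 was at 90.1 and 110 FPKM against 44.9 and 60.1 FPKM (-0.93 ± 0.21, limma adjusted p = 0.138). HJURP fell in H460 too, from 112 and 125 FPKM to 25.6 and 29.9 FPKM (-2.06 ± 0.22, limma adjusted p = 0.0120). In H460 many genes of the S-phase list and of the G2 and M phase list fell where the 6 histone genes rose. These polyA-selected libraries do not measure total histone mRNA. Of the 35 S-phase genes tested 22 fell and 0 rose, with a median log2 fold change of -1.32, and of the 18 genes of G2 and M phase 13 fell and 0 rose, with a median of -1.38, beside 6.86% of all tested genes lower and a median of -0.01. In bulk libraries, fewer cells in a phase of the cycle and less RNA per cell cannot be told apart. GINS2, a subunit of the replicative helicase complex, was at 14.9 and 12.9 FPKM with control siRNA and 2.80 and 1.93 FPKM with NRF2 siRNA (-2.16 ± 0.28, limma adjusted p = 0.0162). MCM4, another helicase subunit, was at 261 and 233 FPKM against 92.3 and 69.4 FPKM, and MCM10, which acts when origins fire, at 22.4 and 30.1 FPKM against 6.54 and 7.32 FPKM. CDC20, an activator of the anaphase-promoting complex, was at 68.8 and 81.7 FPKM against 19.5 and 14.9 FPKM. The mitotic kinase PLK1 was at 164 and 159 FPKM against 51.3 and 52.2 FPKM, and the ubiquitin-conjugating enzyme UBE2C at 149 and 157 FPKM against 51.5 and 45.9 FPKM. CDKN1A, an inhibitor of cyclin-dependent kinases, rose from 23.9 and 21.0 FPKM to 130 and 57.1 FPKM (1.90 ± 0.39, limma adjusted p = 0.0314), and it was the 1 of 7 tested cell cycle inhibitors that passed. Without control library 0 or control library 1 none of these S-phase or G2 and M phase genes passed.

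Of the 22 histone chaperones and related genes, 8 fell in H460 (MCM2 among them, which also counts as an S-phase gene) and 0 rose, with a median log2 fold change of -0.77, beside the 6.86% of all tested genes that were lower. CHAF1A and CHAF1B, subunits of the CAF-1 complex that deposits new H3 and H4 behind the fork, were at 38.3 and 41.8 FPKM against 14.2 and 12.4 FPKM, and at 15.8 and 13.7 FPKM against 4.27 and 4.15 FPKM. Of the 22 factors of histone mRNA transcription, processing and decay, 1 fell and 0 rose, with a median of -0.44, a count near the 6.86% of all tested genes. That 1 was ERI1, an exonuclease that trims histone mRNA ends, at 9.32 and 7.44 FPKM against 3.82 and 1.95 FPKM (-1.31 ± 0.33, limma adjusted p = 0.0496). SLBP was at 59.3 and 54.9 FPKM against 41.5 and 24.3 FPKM (-0.82 ± 0.29, limma adjusted p = 0.107), and NPAT, the coactivator of histone gene transcription, at 4.91 and 6.44 FPKM against 5.13 and 2.04 FPKM (-0.62 ± 0.39, limma adjusted p = 0.320). The part of the cell cycle genes in the histone values was not tested.

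Histone variants, which have polyadenylated transcripts and are made outside S phase too, were measured in all lines. In H460 1 of 11 fell and 1 rose, near the 6.86% lower and 7.12% higher of all tested genes. H2AZ1, an H2A variant found at promoters, fell from 146 and 154 FPKM to 23.8 and 59.4 FPKM (-1.96 ± 0.41, limma adjusted p = 0.0329). H2AJ, another H2A variant, rose from 10.4 and 11.96 FPKM to 25.4 and 23.1 FPKM (1.05 ± 0.23, limma adjusted p = 0.0366). H2AX, which is phosphorylated at DNA breaks, was at 40.4 and 90.5 FPKM against 34.2 and 32.3 FPKM. The genes of the replacement histone H3.3 stood at 27.1 and 37.8 FPKM against 44.2 and 61.6 FPKM (H3-3A) and at 256 and 291 FPKM against 366 and 227 FPKM (H3-3B). None of these 3 passed the test. In A549 and H2023 0 of the 11 variants passed in either direction.

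The same genes in the other lines had these values. In A549 SLBP was at 41.2 and 42.7 FPKM with control siRNA and 39.5 and 47.0 FPKM with NRF2 siRNA, and NPAT at 6.44 FPKM in both control libraries against 5.50 and 4.69 FPKM. H2AZ1 was at 198 and 184 FPKM against 131 and 164 FPKM, and H2AX at 96.2 and 77.5 FPKM against 67.3 and 76.4 FPKM. These 2 variants and NPAT lay below control in both knockdown libraries, with limma adjusted p-values of 0.405, 0.554 and 0.499. H3-3A was at 25.2 and 24.9 FPKM against 32.8 and 26.9 FPKM, and H3-3B at 406 and 363 FPKM against 592 and 407 FPKM.

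In H2023 SLBP was at 35.3 and 28 FPKM with control siRNA, 23.9 FPKM with siRNA 28 and 31.9 FPKM with siRNA 30, and NPAT at 5.96 and 7.04 FPKM against 4.92 and 5.08 FPKM. H2AZ1 was at 106 and 100.1 FPKM, then 41.9 FPKM with siRNA 28 and 105 FPKM with siRNA 30, and H2AX at 78.0 and 108 FPKM, then 50.4 and 78.9 FPKM. siRNA 28 thus gave the lower level of SLBP, H2AZ1 and H2AX. H3-3A was at 41.0 and 35.7 FPKM against 33.0 and 41.6 FPKM, and H3-3B at 262 and 287 FPKM against 326 and 264 FPKM.

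**Figure D5:**
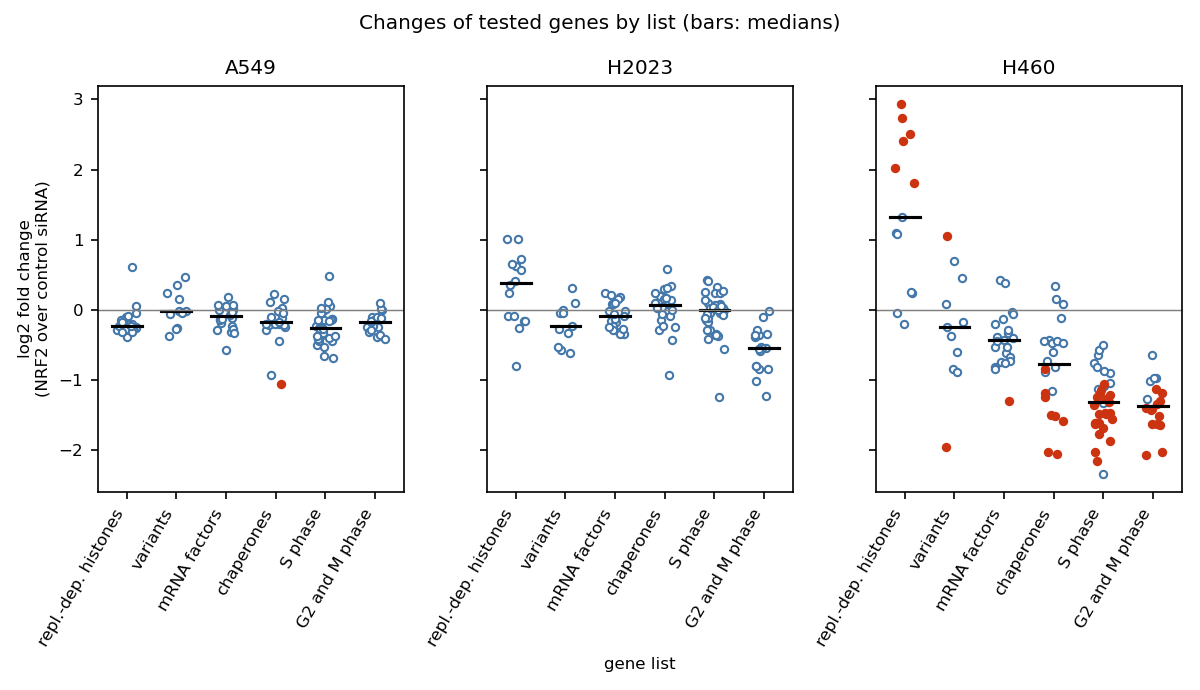
Log2 fold change (NRF2 siRNA over control siRNA) of each tested gene in 6 lists, in A549, H2023 and H460, with filled red points for a limma adjusted p under 0.05 and bars at the medians. From left to right the lists are the replication-dependent histone genes, the histone variants, the factors of histone mRNA, the histone chaperones, the S-phase genes and the genes of G2 and M phase. In H460 the histone genes lie mostly above 0 and the cell cycle lists below 0, while in A549 all medians lie near or below 0.

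The H2023 medians of the cell cycle lists are given for each siRNA, with no test of the difference between siRNAs. The median of the S-phase genes against the control mean was -0.47 with siRNA 28 and 0.39 with siRNA 30, and that of the G2 and M phase genes -0.90 and -0.12. The histone medians were 0.52 and -0.08. In A549 the medians of the S-phase, histone and G2 and M phase genes were -0.26, -0.23 and -0.18, with 0 genes past the threshold in each list. With siRNA 28 they were -0.30, -0.13 and -0.16 in that order, and with siRNA 30 -0.15, -0.29 and -0.15. H2023 and A549 list medians rest on genes that share libraries and were not tested.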

How the data were processed

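RNA was sequenced from 12 libraries, 2 for each of control and NRF2 siRNA in A549, H2023 and H460. TopHat alignment to hg19 and Cufflinks are named in the study's methods for the FPKM that the authors made, whereas the submitters' processing notes name bcl2fastq 2.15.0, cutadapt 1.15, STAR 2.5.3a and Cuffnorm. The authors deposited FPKM per gene and library, scaled to length and library size, and because such tools apportion reads among similar transcripts, values of near-identical histone genes are uncertain. Whether strand was used in counting is not given in the sources used here. The authors' DESeq2 tables hold their own comparisons (fold changes and p-values) and were not used. FPKM values under 1e-06 (12710 of them) were set to 0.

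Identifiers were matched by Ensembl number to symbols (96.1% of rows) and to RefSeq synonyms for the older histone symbols. Of the 37 genes, 10 overlap the bounds of another gene. Positions are those of GENCODE lifted to GRCh37, promoter windows those of RefSeq on GRCh38.p14, and no coordinates were converted.

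Each line was tested on its own 4 libraries with limma 3.58.1 in R 4.3.3 on log2(FPKM + 1), a scale that understates changes of low genes. Genes had FPKM of at least 1 in 2 or more libraries, the prior variance followed mean expression, and adjustment was by Benjamini-Hochberg over all tested genes at 0.05. A fit of all 12 libraries with 6 group means gave the average effect and the differences between lines. The p-values measure the spread between these libraries. Tables were made with pandas 2.3.3 and numpy 2.4.6 in Python 3.11.15 and plots with matplotlib 3.10.9, and the fits were tested on simulated data.

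The genes and lists were chosen with earlier results of these data known. Genes named with values were, in each line, the 5 histone genes with the highest mean, up to 10 past the threshold and the largest rise and fall. Across lines and between siRNAs they were up to 5 past the threshold and the one with the smallest p. From the lists they were SLBP, NPAT, H2AZ1, H2AX, H3-3A, H3-3B and up to 3 per list and line past the threshold, and 1 further gene of the rule is not reported here. By ratio of A549 to the polyA-selected lines they were the 4 highest and 4 lowest among genes at 1 FPKM in an A549 control library. Any histone gene could also be named with its level. Alternatives were a pseudocount of 0.1, no filter, no variance trend, mitochondrial transcripts left out, centring on the median, 1 fit of all libraries, a replicate block and each library left out.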

Additional observations from a re-analysis of the deposited data

Results flagged for a closer look

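The response of H2BC5, an H2B gene, to NRF2 siRNA differed between the 3 lines by the F-test of the within-line effects (adjusted p = 0.0387 by limma). Its log2 fold changes were -0.32 ± 0.15 for A549, 0.57 ± 0.52 for H2023 and 2.73 ± 0.23 for H460 (SE). In A549 both knockdown libraries lay below both controls, in H460 both lay above, and in H2023 siRNA 28 lay above and siRNA 30 below. The A549 libraries held RNA without polyA selection, so the protocol and the line cannot be told apart in this difference, and between H460 and H2023 alone the adjusted p was 0.0574 by limma.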

How the results depend on the processing

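In A549, 0 histone genes were lower or higher under every alternative run. The H460 count of 6 higher became 0 with no filter on low values and ran from 0 to 7 over the fits without 1 library, and the median log2 fold change of the 13 genes was 2.04 with a pseudocount of 0.1 and 1.56 with mitochondrial transcripts left out, and 1.16 to 1.66 without 1 library. In H2023, 1 gene was higher with the replicate block (413 of all genes against 46), 0 to 5 without 1 library, and the median ran from -0.076 to 0.52. Genes whose effect differed between the 3 lines numbered 2 with a pseudocount of 0.1, 3 with mitochondrial transcripts left out, 2 with the replicate block and 0 to 5 without 1 library, and between H460 and H2023 they numbered 1, with mitochondrial transcripts left out or with the replicate block, and 0 to 4 without 1 library.

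The counts of list genes in H460 were checked in the same way, an addition made after seeing the data. Those of the S-phase, G2 and M phase and chaperone lists fell to 0 with no filter, that of the G2 and M phase list to 8 with mitochondrial transcripts left out, and without 1 library they ran from 0 to 30, 0 to 15 and 0 to 11. The direction turned under 1 or more alternatives for 3 of 28 tested histone genes in A549, 9 of 16 in H2023 and 3 of 13 in H460, none of them past the threshold with all libraries. Ranges follow for those among the genes of the naming rule, and for H2AC6 and H3-7. In A549 SLBP ran from -0.086 to 0.16 without 1 library. In H2023 H2BC5 ran from -0.23 to 1.37, H2AC25 from -0.94 to 0.41, H2BC21 from -0.33 to 1.77, H2AC6 from -0.33 to 1.57, SLBP from -0.38 to 0.019, H2AZ1 from -1.28 to 0.029, H3-3A from -0.21 to 0.12 and H3-3B from -0.054 to 0.25, and H3-3A was 0.039 with mitochondrial transcripts left out. Of these H2BC5, H2BC21, H2AC6 and H2AZ1 passed without H2023 siRNA 30. In H460 H2BC12 ran from -0.37 to 0.88, H2AC20 from -0.68 to 0.28, H3-7 from -0.26 to 0.15 and H3-3B from -0.26 to 0.42. The causes were not tested. A lone library was assumed to vary like the other group.

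Same-numbered libraries were paired by no label, and their deviations correlated at -0.03 in A549, 0.31 in H2023 and 0.16 in H460, so the block used only a shared number. Over all genes, 1 fit of all 12 libraries gave 748 calls in H2023 against 128, 4585 in H460 against 1879, and 375 between siRNAs against 0. With the block 8 histone genes were higher in H460 (1647 of all genes against 957) and 0 in A549.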
